A study of Mus musculus with 9 samples.

Results

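The transcription factors that drive epithelial-mesenchymal transition (EMT) were examined in hepatic stellate cells (HSCs) sorted on a reporter of the transcription factor WT1. The group held 7 genes, the Snail family members Snai1 and Snai2, the Twist family members Twist1 and Twist2, the Zeb family members Zeb1 and Zeb2, and the homeobox gene Prrx1. Every array probe whose annotated symbol was 1 of these genes was taken, which gave 14 of the 45281 gene probes on the array. Of these, 9 probes were detected on at least 3 arrays and entered the tests, and together they covered all 7 genes. The other 5 probes were 1 of Snai1, 2 of Zeb2 and 2 of Prrx1. Of those, 4 were detected on no array and the remaining Prrx1 probe on 1 WT1-negative array.

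RNA was profiled on Illumina MouseWG-6 BeadChips in 3 groups of 3 arrays each. All samples were labelled as activated HSCs of male C57/Bl6 mice with the genotype WT1GFP/+ (the methods name both sexes for culture work in general), a reporter that carries GFP on 1 knock-in WT1 allele, so every group shared that heterozygous allele. WT1-high (GFP high) and WT1-intermediate (labelled GFP low) cells were sorted from the livers of mice given repeated carbon tetrachloride injections. WT1-negative cells were GFP negative and came from HSCs kept on plastic for 7 days. Per the methods, HSCs for such cultures were taken from uninjured livers. No uncultured cells of uninjured liver, no unsorted cells and no GFP-negative cells from injured liver were compared here. WT1 status, injury and origin in liver or culture therefore cannot be told apart in either comparison with WT1-negative cells. WT1-high and WT1-intermediate cells both came from injured liver.

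EMT is the change by which epithelial cells lose junctions and polarity and take on a motile, mesenchymal state. Snail and Zeb proteins are zinc finger factors and Twist proteins are basic helix-loop-helix factors, and they bind short E-box sequences, through which they repress epithelial genes such as Cdh1, the gene of E-cadherin. Prrx1 is a homeodomain factor of embryonic mesenchyme that also promotes EMT. In liver, several of these genes are known from mesothelial and stellate cells, which arise from mesoderm, and Zeb2 is also widely used by blood cells, macrophages among them.

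Mean signal per array ran from 147.5 to 288.9 intensity units, and between 38.1% and 43.7% of probes were detected at a detection p under 0.05. Each member probe was read from 17 to 61 beads per array (median 39), and the standard error over beads was 1.34% to 5.19% of its intensity, over the 8 arrays whose bead columns were used. Of 11 HSC markers, 8 were detected on at least 1 WT1-high array and 6 in each other group. Gfap, Lhx2 and Rgs5 were detected on no array and Lrat on 1 WT1-high array. In sorted bulk cells a lower level can come from fewer cells of a type or from less RNA per cell, which cannot be told apart.

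Promoters are shown for the searched member on which the E-box pattern was found. They are also shown for the members that were lowest in WT1-high cells relative to WT1-negative cells. Promoters of 5 of the 7 genes were searched in RefSeq (GRCm38.p6). For Snai2 none was listed, and Zeb1 was left out of the search. Each printed stretch is the 250 bases before the annotated start, read 5′ to 3′ on the strand of the gene. Capitals mark an E-box of the letters CAGGTG or CACCTG, searched on both strands, which is the form preferred by Snail and Zeb factors and a subset of the general E-box CANNTG.
Snai1 (chr2:167537945-167538194, plus strand): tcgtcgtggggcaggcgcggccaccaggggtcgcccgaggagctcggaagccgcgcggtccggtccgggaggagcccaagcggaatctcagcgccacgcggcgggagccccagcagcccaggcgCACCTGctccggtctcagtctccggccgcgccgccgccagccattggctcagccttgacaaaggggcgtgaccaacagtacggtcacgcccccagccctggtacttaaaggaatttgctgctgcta
Zeb2 (chr2:45117443-45117692, minus strand): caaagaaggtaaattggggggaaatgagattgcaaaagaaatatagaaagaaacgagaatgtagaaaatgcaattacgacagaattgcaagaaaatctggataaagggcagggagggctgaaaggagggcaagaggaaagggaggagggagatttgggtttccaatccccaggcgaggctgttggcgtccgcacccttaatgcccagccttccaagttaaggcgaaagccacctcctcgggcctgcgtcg
Twist2 (chr1:91801211-91801460, plus strand): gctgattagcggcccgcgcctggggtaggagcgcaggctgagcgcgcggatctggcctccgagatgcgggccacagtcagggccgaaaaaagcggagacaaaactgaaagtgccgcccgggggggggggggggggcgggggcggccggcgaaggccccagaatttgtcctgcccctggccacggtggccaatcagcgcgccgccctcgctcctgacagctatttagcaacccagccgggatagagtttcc
Prrx1 (chr1:163313651-163313900, minus strand): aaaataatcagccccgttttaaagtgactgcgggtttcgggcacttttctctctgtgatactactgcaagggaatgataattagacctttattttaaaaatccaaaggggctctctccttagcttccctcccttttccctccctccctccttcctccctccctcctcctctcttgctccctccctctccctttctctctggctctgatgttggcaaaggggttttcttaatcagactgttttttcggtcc
Snai1 held 1 general E-box, and it was of the CACCTG form. The windows of Twist1, Twist2, Prrx1 and all 4 annotated starts of Zeb2 held 0 of either form. Among all 32851 mouse promoters of the same length, 66.2% held CANNTG and 17.2% held CAGGTG or CACCTG.

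Prrx1 was the only member with more than 1 tested probe. The sequences of a pair of its probes are given because they read separate stretches of the transcript and gave like values below, and the first lies in the part that encodes the homeodomain.
ILMN_2614463: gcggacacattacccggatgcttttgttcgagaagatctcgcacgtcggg
ILMN_2678094: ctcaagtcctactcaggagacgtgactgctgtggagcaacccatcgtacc

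Within injured liver, WT1-high and WT1-intermediate cells differed in 1 of the 7 EMT factors, Zeb2, which was 2.41-fold lower in WT1-high cells. Against cultured WT1-negative cells, 6 of 7 genes differed for WT1-high cells, with Zeb1 and Twist1 higher and Snai2, Twist2, Zeb2 and Prrx1 lower. Twist2 is counted here although it was detected on no WT1-high array. For WT1-intermediate cells 4 of 7 differed, with Snai1 and Zeb1 higher and Twist2 and Prrx1 lower. A gene was called by its brightest tested probe at a Benjamini-Hochberg adjusted p under 0.05 in a limma model of all 20573 probes tested. By that rule 3.55% of all tested probes were called between the groups from injured liver, 0.904% higher and 2.64% lower in WT1-high cells. With the replicate numbers of the column names as a block, which take the WT1-high and WT1-intermediate arrays as pairs, this share was 8.05% as a fixed block and 8.73% as a random block, and Zeb2 was again the only EMT factor called. The share was 59.6% between WT1-high and WT1-negative cells and 58% between WT1-intermediate and WT1-negative cells, so calls against WT1-negative cells were common on the whole array. The median log2 difference of the 7 genes was −0.17, −0.60 and −0.42 in these comparisons, beside 0.05, −0.10 and −0.13 over all probes tested, and it stayed the same with Twist2 at the bounds given with that gene. The last 2 comparisons share the WT1-negative arrays.

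**Figure D1:**
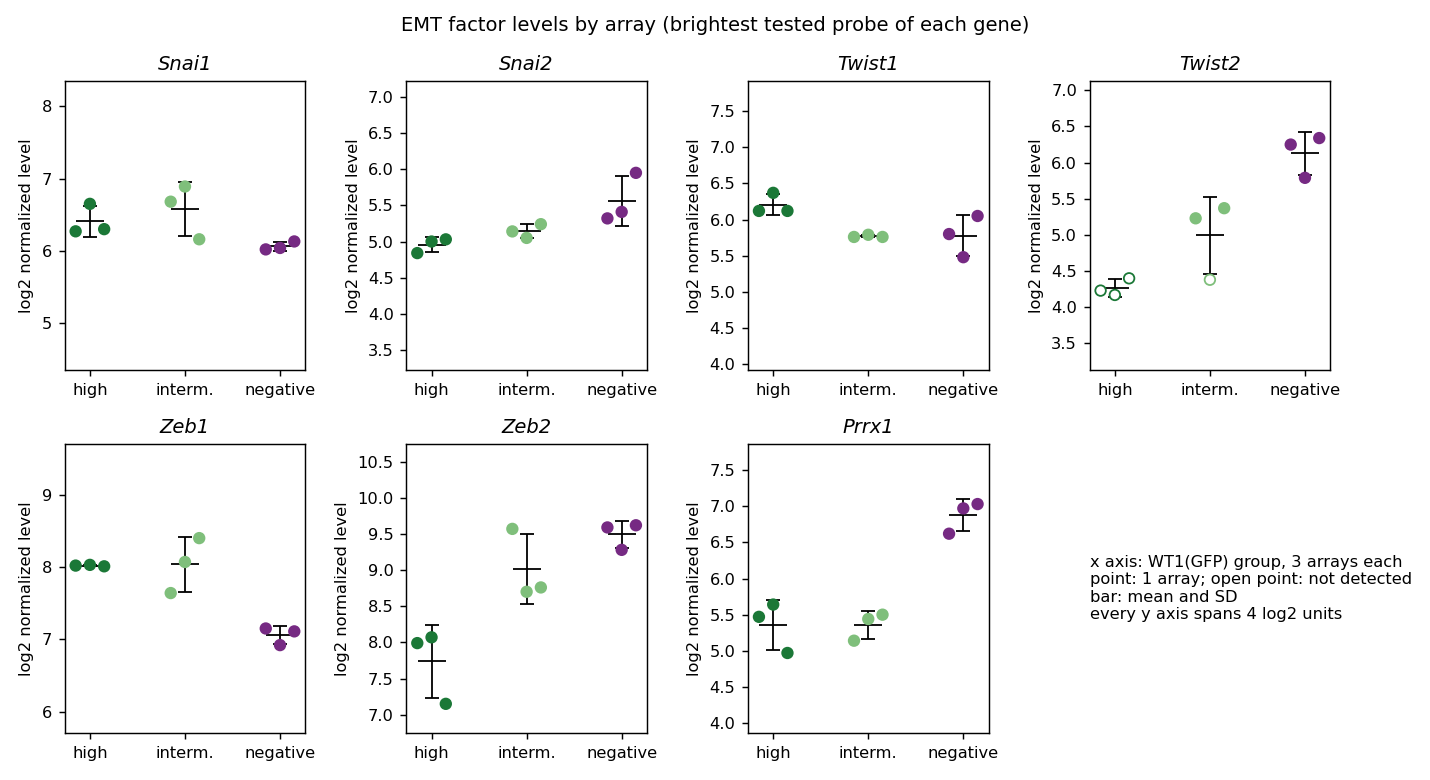
Normalized log2 level of each EMT factor on each array (y axis, 4 log2 units in every panel) by WT1(GFP) group (x axis), with the mean and SD of 3 arrays. Zeb2 had a mean of 7.74 on the WT1-high arrays, 9.01 on the WT1-intermediate arrays and 9.50 on those of WT1-negative cells, Prrx1 stood apart in WT1-negative cells (6.87), and Zeb1 was lowest there (7.06).

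Levels are normalized log2 intensities, given for each group in the order of its replicate numbers, which are 1, 8 and 29 for WT1-high, 1, 8 and 30 for WT1-intermediate, and 3, 11 and 14 for WT1-negative cells. Snai1, a direct repressor of Cdh1 that acts early in EMT, had a level of 6.27, 6.65 and 6.30 in WT1-high cells, 6.68, 6.89 and 6.16 in WT1-intermediate cells and 6.02, 6.04 and 6.13 in WT1-negative cells. All 6 in vivo arrays lay above the 3 WT1-negative arrays, and the WT1-high and WT1-intermediate groups overlapped. The mean log2 difference of WT1-intermediate from WT1-negative cells was 0.52 (SE 0.19, limma adjusted p = 0.04). That of WT1-high from WT1-negative cells was 0.34 (SE 0.19, limma adjusted p = 0.15). WT1-high and WT1-intermediate cells differed by −0.17 (95% interval −0.60 to 0.25, limma adjusted p = 0.7), and the sign of this difference turned under median scaling. The call between WT1-intermediate and WT1-negative cells was lost under 9 of 21 other settings, among them the fits that left out WT1-intermediate replicate 1 (adjusted p = 0.1) or 8 (adjusted p = 0.15) or any WT1-negative array (adjusted p from 0.074 to 0.099).

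Snai2, also known as Slug, is the Snail family member used by neural crest and many mesenchymal cells. Its level was 4.84, 5.00 and 5.03 in WT1-high cells, 5.14, 5.05 and 5.24 in WT1-intermediate cells and 5.32, 5.41 and 5.95 in WT1-negative cells. The order of the groups was thus the reverse of that of Snai1 against WT1-negative cells, and no group overlapped another. The probe was dim, with raw intensities between 1.13 and 1.55 times the median negative control of the array. WT1-high cells were lower than WT1-negative cells by a log2 difference of −0.60 (SE 0.18, limma adjusted p = 0.013). This call was lost in 5 of 21 other settings, which were both median scalings, cyclic loess (−0.45, limma adjusted p = 0.056), the replicate numbers as a block by labels (−0.66, limma adjusted p = 0.051) and the fit without WT1-negative replicate 14 (−0.40, limma adjusted p = 0.07). The block fit sets WT1-high cells at their fitted level for replicate 1, so its value is not a difference of group means. WT1-intermediate cells differed from WT1-negative cells by −0.42 (limma adjusted p = 0.064), a value that passed the threshold without WT1-negative replicate 3 (−0.53, limma adjusted p = 0.043). WT1-high and WT1-intermediate cells differed by −0.19 (95% interval −0.58 to 0.21, limma adjusted p = 0.65), and this sign also turned under median scaling.

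Twist1, a basic helix-loop-helix factor of mesoderm and neural crest, had a level of 6.12, 6.37 and 6.12 in WT1-high cells, 5.76, 5.79 and 5.76 in WT1-intermediate cells and 5.80, 5.48 and 6.05 in WT1-negative cells. The WT1-high arrays were above all 6 others, and the other groups overlapped. The log2 difference of WT1-high from WT1-negative cells was 0.42 (SE 0.17, limma adjusted p = 0.046) and that from WT1-intermediate cells 0.43 (SE 0.17, limma adjusted p = 0.21). The last was above 0 in each same-numbered pair, at 0.36, 0.58 and 0.36 for the pairs numbered 1, 8 and 29 with 30, and its adjusted p was 0.15 with a fixed and 0.084 with a random block by column names. The call against WT1-negative cells stood close to the threshold and was lost under 14 of 21 other settings, including both fixed blocks on the replicate numbers (limma adjusted p = 0.17 and 0.14). Leaving out any array but WT1-negative replicate 14 also lost it, with an adjusted p of up to 0.19 without WT1-negative replicate 11.

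Twist2, the close relative of Twist1 that is active in dermal and other mesenchymal precursors, was distributed the other way. Its level was 4.23, 4.17 and 4.40 in WT1-high cells, 5.23, 4.38 and 5.37 in WT1-intermediate cells and 6.25, 5.79 and 6.34 in WT1-negative cells. No WT1-high array passed the detection threshold, while 2 of 3 WT1-intermediate and 3 of 3 WT1-negative arrays did, and the WT1-negative arrays lay above all others. Twist2 was at least 2.99-fold lower in WT1-high than in WT1-negative cells, a bound taken against the dimmest detected probes of the WT1-high arrays. The bound itself was not tested. The fitted difference was −1.86 (limma adjusted p = 6.9e-05), and its WT1-high values were not detected. The probe entered the tests through its detection on WT1-intermediate and WT1-negative arrays. In WT1-intermediate cells it was lower than in WT1-negative cells by a log2 difference of −1.13 (SE 0.25, limma adjusted p = 0.0024). Its mean in WT1-intermediate cells was at least 1.36-fold above the dimmest detected probes of the WT1-high arrays. The fitted difference of WT1-high from WT1-intermediate cells, −0.73, was not called (limma adjusted p = 0.15). The fit passed the threshold without WT1-intermediate replicate 8 (limma adjusted p = 0.022), the array of that group on which the probe was not detected.

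Zeb1, a zinc finger and homeodomain repressor of Cdh1 and of the miR-200 family, was nearly the same on the WT1-high arrays at 8.02, 8.03 and 8.01. It was 7.64, 8.07 and 8.40 in WT1-intermediate cells and 7.15, 6.92 and 7.11 in WT1-negative cells. All in vivo arrays lay above all WT1-negative arrays. The log2 difference from WT1-negative cells was 0.96 for WT1-high cells (SE 0.19, limma adjusted p = 0.001) and 0.98 for WT1-intermediate cells (SE 0.19, limma adjusted p = 0.00095), and the groups from injured liver differed by −0.02 (95% interval −0.43 to 0.39). The WT1-high call was kept in all 21 other settings, and the WT1-intermediate call was lost under median scaling over all probes (0.28, limma adjusted p = 0.36).

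Zeb2, the paralog of Zeb1, had the widest range over arrays among the tested member probes. Its level was 7.99, 8.07 and 7.15 in WT1-high cells, 9.57, 8.70 and 8.76 in WT1-intermediate cells and 9.59, 9.28 and 9.62 in WT1-negative cells. All WT1-high arrays lay below all other arrays, while WT1-intermediate replicate 1 reached the WT1-negative range. WT1-high cells were lower than WT1-negative cells by a log2 difference of −1.76 (SE 0.28, limma adjusted p = 0.00026), a call kept in all 21 other settings. They were lower than WT1-intermediate cells by −1.27 (SE 0.28, 95% interval −1.89 to −0.65, limma adjusted p = 0.032). Of 9 member probes, 3 had WT1-high and WT1-intermediate arrays that did not overlap, those of Snai2, Twist1 and Zeb2, beside 20.1% of all tested probes.

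The difference in Zeb2 between WT1-high and WT1-intermediate cells had the same sign in every same-numbered pair, at −1.57 for the pair numbered 1, −0.63 for that numbered 8 and −1.61 for replicates 29 and 30. Its call was lost under 9 of 21 other settings, with an adjusted p from 0.0047 to 0.31 over all of them and the same sign in each. It was lost without WT1-high replicate 8 (−1.45, limma adjusted p = 0.053), without WT1-high replicate 29 (−0.97, limma adjusted p = 0.09) and without WT1-intermediate replicate 1 (−0.99, limma adjusted p = 0.11). With the replicate numbers as a block by labels it was −1.10 (limma adjusted p = 0.051), and with the block by column names, which also joins replicates 29 and 30, it was −1.27 (limma adjusted p = 0.0047). Zeb2 in WT1-intermediate cells differed from WT1-negative cells by −0.49 (95% interval −1.11 to 0.13, limma adjusted p = 0.16). Without WT1-intermediate replicate 1 this was −0.77 (limma adjusted p = 0.03).

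The summed levels of macrophage and of endothelial cell markers had the order of groups that Zeb2 had. The summed normalized level of 20 macrophage genes was 8850 to 13745 in WT1-high cells, 23756 to 38382 in WT1-intermediate cells and 61083 to 66347 in WT1-negative cells, the same order of groups as Zeb2. Between WT1-high and WT1-intermediate cells 13 of 19 tested markers were called lower in WT1-high cells and 0 higher (median log2 difference −1.62), among them C1qa at −2.83 (limma adjusted p = 7.3e-06) and Cd68 at −2.12 (limma adjusted p = 0.007). Of the 20 genes, 18, 19 and 17 were detected in these groups, in that order. Cd5l was detected in no group, Itgam not in WT1-high cells, and the Kupffer cell genes Clec4f and Timd4 not in WT1-negative cells. Against WT1-negative cells 13 macrophage markers were called lower and 1 higher in WT1-high cells. In WT1-intermediate cells they were split, with 7 lower, such as Mrc1 at −4.60 and C1qa at −2.60, and 5 higher, which were Clec4f, Marco, Timd4, Mpeg1 and Vsig4. The order of the summed levels between these groups was thus not that of every gene. The summed level of 12 endothelial genes was 1313 to 1632 in WT1-high cells, 2333 to 2767 in WT1-intermediate cells and 4568 to 5356 in WT1-negative cells, again without overlap. Within groups this sum did not follow Zeb2. WT1-high replicate 29 had the highest sum of its group (1632) and the lowest Zeb2 (7.15). WT1-intermediate replicate 1 had the lowest sum of its group (2333) and the highest Zeb2 (9.57). Within injured liver 4 of 11 tested endothelial markers (Stab2, Tek, Eng and Fcgr2b) were called lower in WT1-high cells and 0 higher, with a median log2 difference of −0.76. Of 7 tested portal fibroblast markers 2 were called lower (Pi16 and Dpt), of 7 HSC markers 2 lower and 1 higher, of 4 cholangiocyte markers 1 lower and of 9 mesothelial markers 1 higher. Of these 9, 6 had an unadjusted limma p under 0.05. The summed level of the mesothelial markers had the reverse order of groups to Zeb2, also without overlap. It was 33557 to 39391 in WT1-high cells, 19362 to 27277 in WT1-intermediate cells and 214 to 262 in WT1-negative cells. The part of RNA from macrophages or other cells in the Zeb2 difference was not tested.

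**Figure D2:**
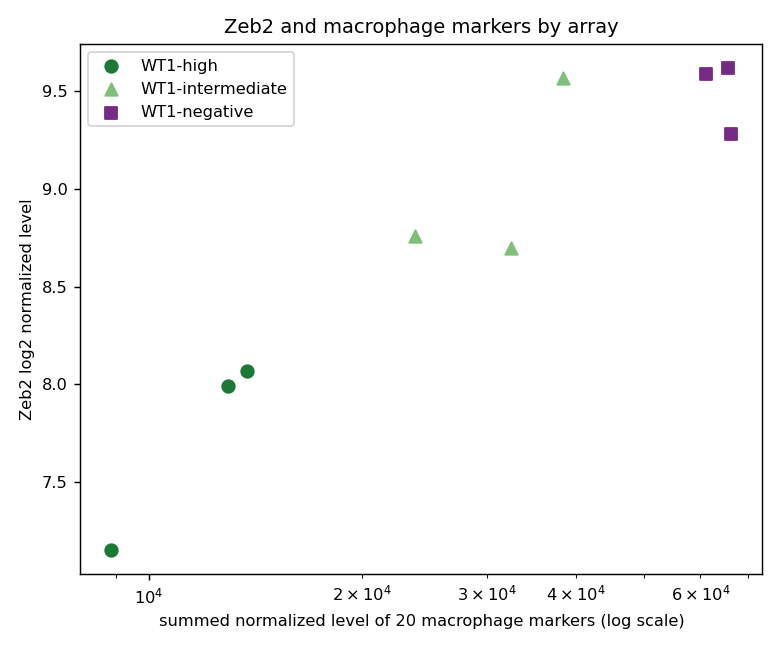
Zeb2 normalized log2 level (y axis) against the summed normalized level of 20 macrophage markers (x axis, log scale), 1 point per array and 1 symbol per group. The WT1-high arrays sit lowest on both axes, with WT1-high replicate 29 at 8850 and 7.15, and WT1-intermediate replicate 1 has the highest value of its group on both axes, at 38382 and 9.57. Not every array follows this order. WT1-negative replicate 11 has the highest sum of its group (66347) and the lowest Zeb2 (9.28). WT1-intermediate replicate 30 has a lower sum than replicate 8 (23756 against 32449), with Zeb2 at 8.76 against 8.70.

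Prrx1 separated WT1-negative cells from both in vivo groups. Its brightest probe, ILMN_2678094, had a level of 5.47, 5.64 and 4.97 in WT1-high cells, 5.14, 5.44 and 5.50 in WT1-intermediate cells and 6.62, 6.97 and 7.03 in WT1-negative cells. The in vivo groups overlapped each other and lay below every WT1-negative array. The log2 difference from WT1-negative cells was −1.51 for WT1-high cells (SE 0.20, limma adjusted p = 6.5e-05) and −1.51 for WT1-intermediate cells (SE 0.20, limma adjusted p = 7.3e-05), which is 2.85-fold lower in each. WT1-high and WT1-intermediate cells differed by 0.00 (95% interval −0.44 to 0.44). The homeodomain probe ILMN_2614463 gave −1.32 and −1.26 in the comparisons with WT1-negative cells, and ILMN_3057018 gave −1.04 and −1.33, all called. The 3 probes read 1 gene and are not independent replicates, and their calls against WT1-negative cells were kept in every other setting in which they were tested.

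**Figure D3:**
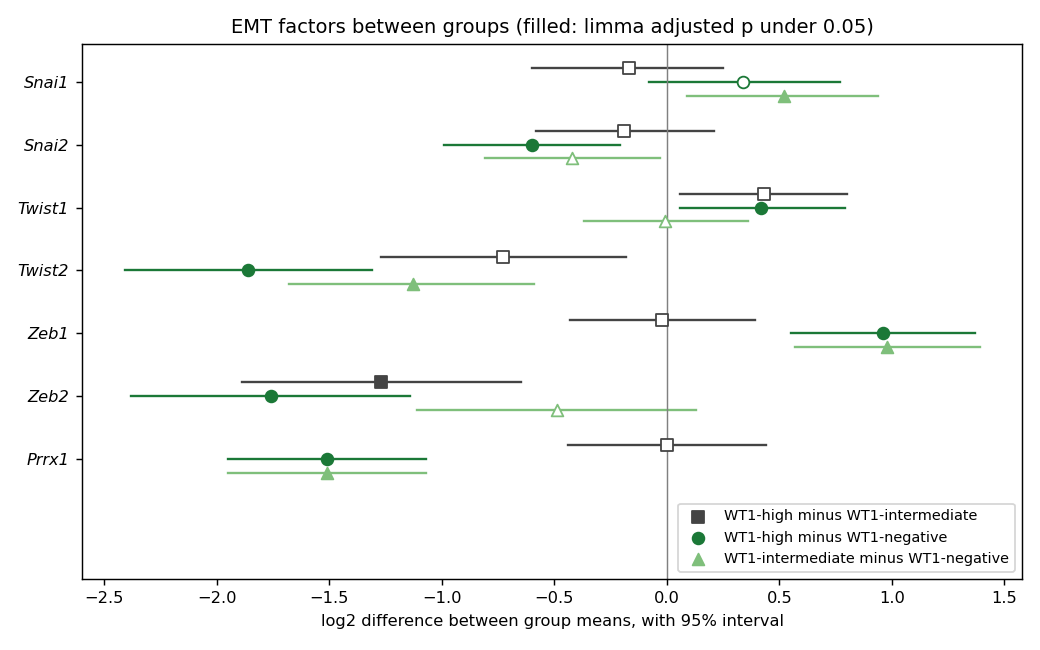
Log2 difference between group means (x axis) for the brightest tested probe of each EMT factor (y axis), with 95% intervals from the limma model. Filled symbols passed an adjusted p of 0.05. Zeb2 is the single filled square at −1.27, and Prrx1 lies at −1.51 in both comparisons with WT1-negative cells. Twist2 was not detected in WT1-high cells, so its values that involve them are fitted differences only.

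Against WT1-negative cells, 2 genes were called higher and 4 lower in WT1-high cells, beside 26.5% and 33.1% of all tested probes called in these directions. The WT1-intermediate comparison gave 2 higher and 2 lower, beside 24.4% and 33.6%. WT1-high and WT1-negative arrays did not overlap for 9 of 9 member probes, beside 68.4% of all tested probes, and WT1-intermediate and WT1-negative arrays for 7 of 9, beside 65.5%. The counts for WT1-high cells include Twist2, which was detected on none of their arrays. Markers of other cell types also separated WT1-negative cells. The summed level of 7 skeletal muscle markers was 5617 to 8831 in WT1-negative cells and 137 to 184 on the in vivo arrays, and all 6 tested muscle markers and all 6 tested cell cycle genes were called lower in both in vivo groups. All 9 mesothelial markers were called higher in both in vivo groups. Their part in the differences of Twist2, Prrx1 and the other factors was not tested.

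Paralogs of each family were also set side by side on each array. The log2 difference between the probes of a pair on 1 array cancels any scaling of that array. Its absolute value depends on the probes and has no meaning, so only its change between groups is described, with no test, since the pairs were set out after the values had been seen. Zeb1 minus Zeb2 ran from −0.04 to 0.86 in the WT1-high group, from −1.93 to −0.36 in the WT1-intermediate group and from −2.51 to −2.36 in cultured cells. For this pair the 3 groups did not overlap. Twist1 minus Twist2 ran from −0.44 to −0.29 in WT1-negative cells. It was 0.52 and 0.39 on WT1-intermediate replicates 1 and 30. Where Twist2 was not detected, only a lower bound could be set, of 1.24 on WT1-intermediate replicate 8 and of 1.47 to 1.87 on the WT1-high arrays, so that the in vivo groups have no set order. Both lay above WT1-negative cells. Snai1 minus Snai2 ran from 1.27 to 1.65, from 0.92 to 1.84 and from 0.18 to 0.70 in the group order used for Zeb1 minus Zeb2, so that the in vivo groups overlapped and both lay above WT1-negative cells.

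**Figure D4:**
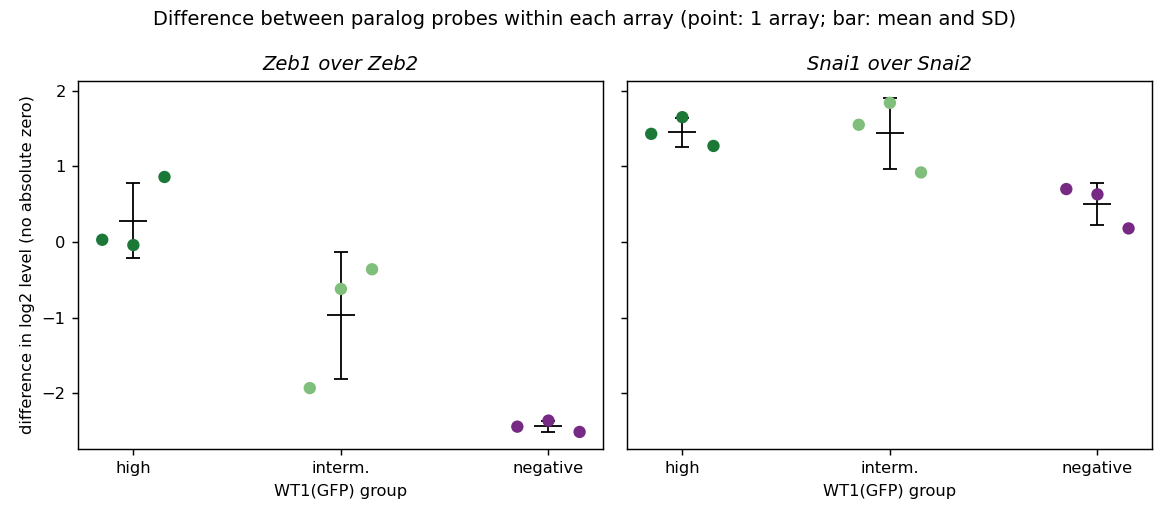
Difference in normalized log2 level between the paralog probes of the Zeb and Snail families on each array (y axis, without an absolute zero) by WT1(GFP) group (x axis), with the mean and SD of 3 arrays. The mean for Zeb1 minus Zeb2 was 0.28 in the WT1-high group, −0.97 in the WT1-intermediate group and −2.44 in cultured cells.

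Relatives and partners of the factors were read from listed genes. None of 4 tested relatives and none of 7 dimerization partners and inhibitors of Twist proteins were called between the groups from injured liver by limma, and 0 and 4 of them had an unadjusted p under 0.05. Against WT1-negative cells, Snai3, the third Snail gene, stood 1.74 higher in WT1-high cells (SE 0.18, limma adjusted p = 9.8e-06) and by 1.96 in WT1-intermediate cells (SE 0.18, limma adjusted p = 5e-06). Prrx2, the paralog of Prrx1, was lower by a log2 difference of −0.65 in WT1-high cells (limma adjusted p = 0.015), a call kept in 18 of 21 other settings and lost under both median scalings and without WT1-negative replicate 14. Of the 7 partners and inhibitors, 4 were called higher and 1 lower in each in vivo group. The 4 were Tcf3 and the inhibitor genes Id2, Id3 and Id4. The lower call was of a partner in each group, Tcf4 in WT1-high cells (−0.76) and Tcf12 in WT1-intermediate cells (−0.47). The probe annotated as Tcf3, which is among the 4, was 1.64 higher in the WT1-high group and 1.19 higher in the WT1-intermediate group. It was matched by the symbol on the array alone. Its identity as the gene of the E proteins that pair with Twist was not checked. Id3, an inhibitor of E proteins, was higher by 1.12 and 1.34. Id4 was detected on no WT1-negative array, and its bound was at least 2.37-fold higher for WT1-high cells and at least 2.38-fold for the WT1-intermediate group.

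Among genes listed as corepressors and chromatin partners, 6 of 13 tested were called lower and 1 higher in WT1-high than in WT1-negative cells. In WT1-intermediate cells it was again 6 lower and 1 higher. The 6 in WT1-high cells include Mta3 at −0.47 (limma adjusted p = 0.026), which was kept in 15 of 21 other settings and of which a second probe was called in the opposite direction. Ezh2, the methyltransferase of a Polycomb repressive complex, had a log2 difference of −2.59 in WT1-high cells and −2.67 in the WT1-intermediate group, and Suz12, a core subunit of the same complex, −1.11 and −0.95. Eed, another core subunit, went the other way at 1.52 and 1.80. Ezh2 is also a gene of dividing cells, and the cell cycle genes moved in the same direction as it did. Genes for turnover and nuclear export of the factors were split, with 2 of 11 called higher and 3 lower in each in vivo group. Gsk3b, the kinase that marks Snai1 for degradation, was at −0.83 in WT1-high cells and −1.04 in the WT1-intermediate group, while Prkd1, a kinase that acts on Snai1, was at 1.71 and 1.24. None of 13 corepressors and chromatin partners and none of 11 turnover genes were called between the groups from injured liver by limma, with 1 and 2 at an unadjusted p under 0.05.

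Upstream signals known to induce EMT factors had 11 of 18 tested genes called higher and 3 lower in WT1-high than in WT1-negative cells, with a median log2 difference of 1.09. In WT1-intermediate cells 11 were higher and 2 lower, and limma called 0 of 18 between the in vivo groups, with 4 at an unadjusted p under 0.05. The TGFβ ligands, the best known inducers of EMT and of HSC activation, were split. Tgfb2 was 2.56 higher in WT1-high cells and 2.31 higher in the WT1-intermediate group (limma adjusted p = 6.8e-06 and 1.8e-05), whereas Tgfb1 was lower, at −1.86 and −1.08 (limma adjusted p = 4e-05 and 0.002). The cytokine gene Il6 was 11.1-fold and 19.2-fold higher, and Wwtr1, which encodes the Hippo pathway coactivator TAZ, was 6.56-fold and 5.25-fold higher.

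Of 16 tested epithelial genes that EMT factors are known to repress, 8 were called higher and 2 lower in WT1-high than in WT1-negative cells, and 8 higher and 3 lower in WT1-intermediate cells. The lower calls depended on the setting for Tjp3 in WT1-intermediate cells (−0.34, limma adjusted p = 0.039), kept in 4 of 20 other settings, and for Cldn7 in WT1-high cells (−0.52, limma adjusted p = 0.028), kept in 10 of 20. The simple epithelial keratins Krt8 and Krt18, which mesothelial cells also express, were higher by 4.76 and 4.57 in WT1-high cells. Krt19 was detected on no WT1-negative array, and its bound was at least 64.6-fold higher for WT1-high cells and at least 41.3-fold for the WT1-intermediate group. Cdh1 was higher by 0.88 (SE 0.21, limma adjusted p = 0.0034) and 0.79 (SE 0.21, limma adjusted p = 0.0066). Cldn3, a tight junction gene, was the 1 gene of this list called between the in vivo groups, 1.43 higher in WT1-high cells (SE 0.16, limma adjusted p = 0.00085), and that call was kept in all 20 other settings in which it was tested. Krt19 and Epcam are also markers of cholangiocytes. Epcam, Ocln, Esrp1, Grhl2, Mal2 and Rab25 were detected on no array.

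Mesenchymal genes that accompany EMT were split against WT1-negative cells, with 6 of 16 tested called higher and 4 lower in both in vivo groups. The matrix genes Col3a1 and Col1a2 and the matrix protease gene Mmp2 were higher in WT1-high cells by 4.55, 2.69 and 2.55. The contractile genes Acta2, which encodes α-smooth muscle actin, and Tagln were lower, at −1.78 and −1.81, and the collagen gene Col1a1 was at −1.40 (limma adjusted p = 0.0067). Vim, the gene of the intermediate filament vimentin, differed by 0.12 and was not called. Acta2 was the 1 gene of this list called between the in vivo groups, 0.76 higher in WT1-high cells (SE 0.17, limma adjusted p = 0.035), and this call was kept in 11 of 21 other settings. Over the 7 lists, 44 of 54 calls between WT1-high and WT1-negative cells and 32 of 53 between WT1-intermediate and WT1-negative cells were kept in every other setting in which the probe was tested. The lists were chosen with earlier results of these data known, so their counts describe these arrays and give no separate evidence of direction.

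**Figure D5:**
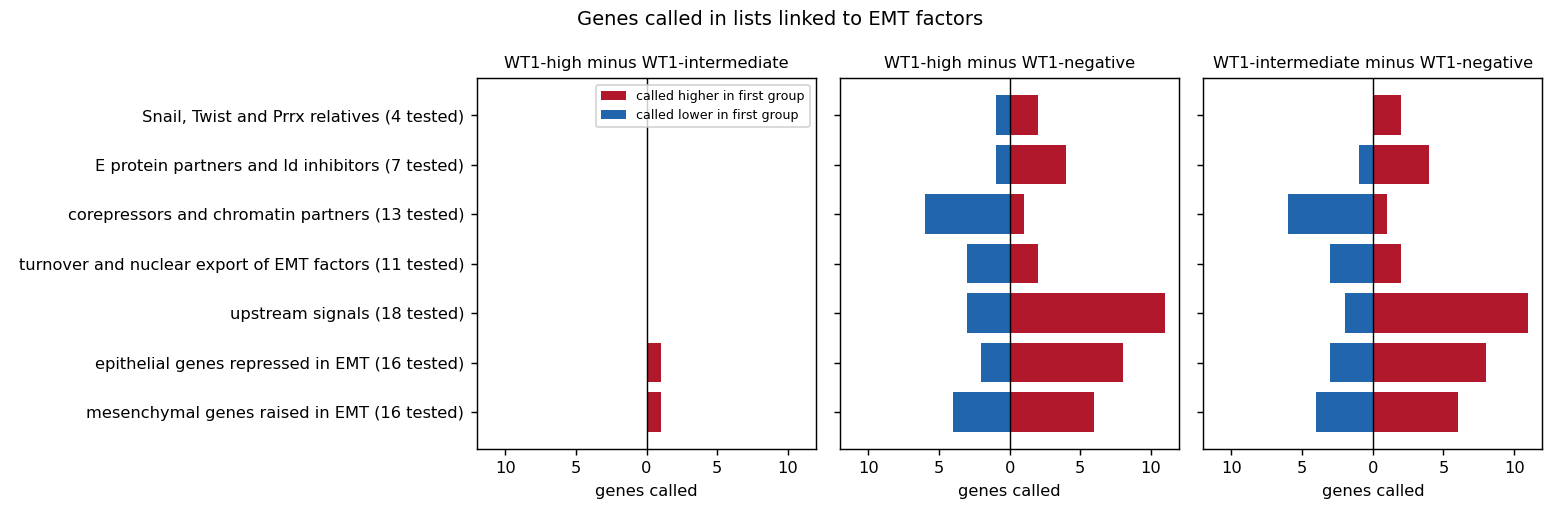
Number of genes called higher (right of 0) or lower (left of 0) in the first-named group (x axis) for each list of genes linked to EMT factors (y axis, with the number tested), by limma adjusted p under 0.05. Within injured liver 1 epithelial and 1 mesenchymal gene were called, and against WT1-negative cells the upstream signals had 11 genes higher in each in vivo group.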

How the data were processed

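Per the study's methods, unnormalised probe profiles of Illumina MouseWG-6 v2.0 arrays were exported from BeadStudio. The deposited tables hold, per the file headers, an intensity, a detection p-value, a bead number and a bead standard error per probe and array. The authors had applied no background correction or normalization to these values, and the table that joins all arrays held the same intensities (largest difference 0.0).

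From the intensities, the 9 arrays were background corrected on 936 negative control probes, quantile normalized and put on a log2 scale with an offset of 16 (neqc, limma 3.58.1, R 4.3.3). Probes with a detection p under 0.05 on 3 arrays or more were kept, and a linear model of 3 groups with moderated two-sided tests (6 residual and 5.19 prior degrees of freedom) was adjusted by Benjamini-Hochberg over 20573 probes. The number of arrays limits the precision. In a simulation of 200 changed probes by 2 on the log2 scale among 20573, between 99% and 100% were recovered with 10 to 14 false calls. That change is larger than any fitted difference of an EMT factor (largest −1.86), and the simulated arrays were drawn without pairing. The recovery therefore gives no measure of the power for the smaller differences reported here.

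One WT1-intermediate intensity column carried the number 29 where the labels give 30. It was taken as that replicate, the only one left in its group, and its values equal the joined table's column for that sample. Its detection p-value was recomputed as the share of negative controls at least as bright (largest difference from the deposited p on the 8 other arrays 0.0011). Deviations of same-numbered WT1-high and WT1-intermediate arrays correlated at 0.35, 0.34 and 0.47, and other pairs at −0.39 to 0.03, so the numbers were taken to pair these samples. The reported fit has no replicate block and does not use this pairing, and the fits with a block are given beside it. The methods name as many animals as pairs. Replicates of cultured cells are, per the methods, independent isolations. The members and lists were chosen with earlier results of these data known. Each gene is described by its tested probe with the highest mean, and list genes named are examples from lists whose counts are given. Of 204 list genes, 193 matched by symbol, 6 by Entrez identifier and 5 not. Wt1 is not reported here. Alternatives covered background correction, scaling, filtering, offset, the arrays in the fit, array weights, replicate blocks and leaving out each array.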

Additional observations from a re-analysis of the deposited data

Results flagged for a closer look

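The response of Zeb2 relative to WT1-negative cells differed between the 2 in vivo groups. Its log2 difference from WT1-negative cells was −1.76 in WT1-high cells, while WT1-intermediate cells gave −0.49, and the test of the difference between these, which is the direct comparison of these groups, gave −1.27 (SE 0.28, limma adjusted p = 0.032). It was the only one of the 7 EMT factors to pass that test, and the call was lost under 9 of 21 other settings.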

How the results depend on the processing

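No result of an EMT factor changed sign while called. Among list genes called between WT1-intermediate and WT1-negative cells, Siah1a, Cldn7, Tjp3 and Cdh2 each changed sign in 1 setting. The cell type markers Kdr, Tie1, Eng and Ngfr did so too. Within injured liver the count of EMT factors called was 1, and it was 0 without background correction, under median scaling over all probes, with an offset of 50, without the filter on dim probes, when the third group was left out of the fit, and with the replicate block by labels. Leaving out 1 array at a time gave 0 to 2 genes in that comparison, 5 for WT1-high against WT1-negative cells, and 3 to 4 for WT1-intermediate against WT1-negative cells. The other settings gave 4 to 6 and 3 to 6 in the last 2 comparisons, beside 6 and 4. With the replicate numbers as a block by labels the 3 counts were 0, 4 and 4, and by column names 1, 5 and 4. In these fixed blocks the last 2 counts set the fitted level of in vivo replicate 1 against WT1-negative cells. They are therefore not blocked comparisons of group means. The block by labels ended the calls of Zeb2, Snai2 and Twist1 given beside those genes, the fixed block by column names ended that of Twist1 alone, and neither changed another call of an EMT factor. The random block (consensus correlation 0.3) left the counts at 1, 6 and 4.

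Median scaling over all probes, most of which were at background, moved the median of all tested probes within injured liver from 0.05 to 0.45, and between WT1-intermediate and WT1-negative cells from −0.13 to −0.44. Relative to those medians, the Zeb2 difference within injured liver was −1.32 in the reported fit and −1.02 under this scaling, where the difference itself was −0.57 (limma adjusted p = 0.31). A second median scaling, over the probes detected on all arrays, was added after the result of the first had been seen. It gave a median of −0.18 and kept the Zeb2 call, but lost those of Snai2 between WT1-high and WT1-negative cells (−0.46, limma adjusted p = 0.11) and of Twist2 between WT1-intermediate and WT1-negative cells (−0.73, limma adjusted p = 0.084). Over all probes, calls ranged from 324 (without WT1-intermediate replicate 1) to 2684 (median scaling over all probes) beside 730 within injured liver, from 7970 to 13698 beside 12258 between WT1-high and WT1-negative cells, and from 7716 to 12649 beside 11935 between WT1-intermediate and WT1-negative cells. Detection on all 9 arrays left Twist2 and 1 Prrx1 probe untested. The cause of these changes was not tested. All tested member probes but those of Zeb1 and Zeb2 stayed within 2.49 times the median negative control, and differences of such dim probes are compressed.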

Other observations

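The genes whose probes followed each factor most closely, by root mean square distance of centred log2 levels over 9 arrays, are given as a description. The nearest to Zeb2 were the phosphatase gene Ptpre (0.100), Arhgap30 (0.191) and Rgl1 (0.206). Those nearest to Twist2 were Rab8b (0.154) and Kctd12 (0.194), those nearest to Zeb1 were Tsc22d2 (0.102) and Tap2 (0.115), and those nearest to Prrx1 were 1700052N19Rik (0.104) and Ptk9 (0.108). These distances were picked from all tested probes and carry no test.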
